A study of Mus musculus with 12 samples.

Results

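Microglia taken from the brain after a syngeneic transplant were compared with microglia of untransplanted mice, gene by gene, in 4 libraries of each group. These 8 libraries were all those of the 2 groups, out of 12 in the series, and 12695 of the 24328 gene symbols in the count table had enough counts to be tested. All mice were wild type BALB/c, and microglia were obtained by flow cytometric sorting. The syngeneic recipients had been lethally irradiated, had received 5000000 bone marrow cells with 300000 T cells of a syngeneic donor, and were killed by perfusion 14 days later. The control mice had no transplant, and the labels record no irradiation for them. A further 4 recipients, treated alike but given allogeneic cells, entered the statistical fit and are described only where their values stand beside those of the syngeneic group. Radiation, donor marrow and donor T cells were given together and cannot be told apart in this comparison. The donor strain, the sorting gates, and the sex, age and batch of the mice were not given in the sources used here.

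Microglia are the resident macrophages of the brain parenchyma, renew themselves locally, and depend on signalling through the Csf1 receptor and on transforming growth factor beta. Ionising radiation breaks DNA and activates the transcription factor p53, which induces genes that halt the cell cycle or promote cell death. Irradiation of the head is also known to permit circulating myeloid cells to enter the brain, where they can take on part of the microglial phenotype. A syngeneic transplant supplies cells that the recipient does not recognise as foreign, so that it serves in such studies as the control for irradiation and transplantation without graft-versus-host disease.

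Library totals lay between 32652208 and 45439607 counts in control and between 36422729 and 46126118 counts in syngeneic libraries. Levels below are CPM, counts scaled to a common library size after TMM normalisation, and group values are means ± SD over 4 mice. Changes are log2 fold changes, syngeneic minus control, with their standard error (SE), from edgeR's quasi-likelihood test, written below as log2 value ± SE, and a gene was called higher or lower where its Benjamini-Hochberg adjusted p over all tested genes was under 0.05. Spearman correlations between libraries across genes were 0.980 to 0.984 within the control group and 0.978 to 0.980 within the syngeneic group. Transcripts that define microglia were abundant in every library. P2ry12, a purinergic receptor of microglia, was at 13768, 12179, 10968 and 11393 CPM in control libraries 1 to 4, and 18197, 17432, 17396 and 16104 CPM in syngeneic libraries 1 to 4. Cx3cr1, the fractalkine receptor of microglia, ranged from 6030.1 to 7658 CPM in control and from 4191 to 5190.3 CPM in syngeneic libraries.

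After the syngeneic transplant 3357 of the 12695 tested genes (26.4%) were called higher than in control microglia and 3253 (25.6%) lower, together 52.1% of the genes. The changes reached 2-fold in 1395 of the genes called higher and in 1828 of those called lower. Genes of cell division, p53 targets, interferon-stimulated genes, chemokines and complement were among those that rose. Nuclear long non-coding RNAs, splicing factors, several homeostatic microglial genes and parts of the Toll-like receptor pathway were among those that fell. The 4 libraries of one group did not overlap those of the other in 50% of tested genes, with 24.6% higher and 25.5% lower in syngeneic libraries. The median log2 fold change over all tested genes was -0.028. With library totals in place of TMM factors it was -0.20, and 2723 genes (21.4%) were called higher and 3968 (31.3%) lower, so that higher genes made up 40.7% of calls in place of 50.8%. Because 52.1% of genes were called, the count of called members in a gene list is read below against these shares, and list medians against the median of all genes. In bulk RNA, a lower level per cell and fewer cells that carry the transcript cannot be told apart.

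**Figure D1:**
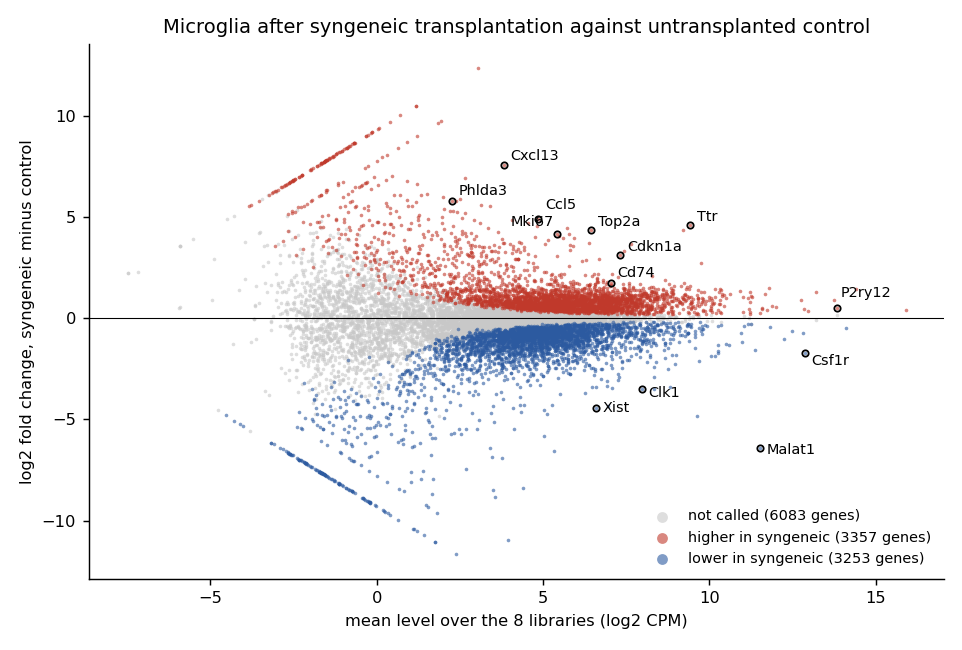
Log2 fold change of each tested gene (vertical axis, syngeneic minus control) against its mean level over the 8 libraries (horizontal axis, log2 CPM); points are genes, red called higher, blue called lower and grey not called, and the 2 tested genes with no counts in these libraries are not drawn. Malat1 and Xist lie far below 0 for their level, while Cxcl13, Phlda3, Ttr and Top2a lie far above; the diagonal lines of points at the left are genes with few or no counts in 1 group.

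The composition of the libraries differed between the groups in several respects, each tested by an exact two-sided permutation test over the 8 libraries with adjustment over 7 measures. Cytosolic ribosomal protein genes took 1.97 ± 0.110% of counts in control and 3.47 ± 0.110% in syngeneic libraries (exact adjusted p = 0.0400). Nuclear and snoRNA-host long non-coding RNAs took 0.717 ± 0.117% and 0.0205 ± 0.00414% (exact adjusted p = 0.0400). The 50 most counted genes of a library took 30.8 ± 0.483% and 33.3 ± 0.499% (exact adjusted p = 0.0400). The 45S ribosomal RNA precursor Rn45s took 1.59 ± 0.263% and 1.56 ± 0.230%, a difference within the spread (exact adjusted p = 0.943), and the number of genes at 1 CPM or more was 10891 ± 47.3 and 10847 ± 26.9 (exact adjusted p = 0.200). For each library, tested genes were split into 5 classes of equal size by transcript GC content, and the median log2 CPM of the highest class was set against that of the lowest. This difference was -0.37 ± 0.062 in control and -1.35 ± 0.084 in syngeneic libraries (exact adjusted p = 0.0400). The same difference between the classes of longest and shortest transcripts was 0.54 ± 0.13 and 0.30 ± 0.038 (exact adjusted p = 0.0400). With means in place of medians neither difference passed the test (exact adjusted p = 0.05 for GC content and 0.2 for length). For GC content the unadjusted p stayed at 0.0286, with the groups wholly apart. Its adjusted p was larger because fewer of the 7 measures reached that value. Syngeneic minus control, the GC measure differed by -0.900 with means and -0.983 with medians. The length measure differed by -0.0869 with means and -0.244 with medians. In the measures that passed the test the 4 syngeneic libraries lay wholly on one side of the 4 control libraries, and 0.0286 is the smallest unadjusted p that 4 against 4 can give. With 1 library left out the smallest possible p is 0.0571, so none of these measures can pass then. Transcripts of other cells moved with the groups too: summed markers of choroid plexus were at 21.8 to 147 CPM in control and 1453 to 2537 CPM in syngeneic libraries, those of monocytes at 24.6 to 28.8 CPM and 54.1 to 83.5 CPM, and those of neurons at 1.65 to 3.15 CPM and 8.65 to 16.5 CPM. Their part in the changes described below was not tested, and the markers are given in full after them.

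Whether a gene was called higher or lower went with its GC content. Of the 2523 tested genes in the lowest GC class (29.6 to 44.2%), 42.8% were called higher and 11.6% lower, with a median log2 fold change of 0.40. In the highest class (55.7 to 78.6%), 12.6% were called higher and 40.3% lower, with a median of -0.53. Across the 12613 tested genes with a matched transcript, which are not independent replicates, Spearman's rho between GC content and log2 fold change was -0.30. The calls differed less by length: among transcripts of up to 1691 bases 38.8% were called higher and 17.1% lower, and among those of 5000.0 bases or more 23.6% and 21.1%. A fit with an offset for GC content and length in each library brought the shares in the lowest GC class to 25.5% and 22.4%, and those in the highest to 21.1% and 23.3%. The offset was fitted to these same levels, so the more even shares follow from the fit itself. A true change that follows GC content or length would be removed as well. With the offset 3058 genes (24.1%) were called higher and 2808 (22.1%) lower. Of the genes called higher without the offset 2536 were called higher with it, of those called lower 2303 were called lower, and 44 genes were called in the opposite direction.

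**Figure D2:**
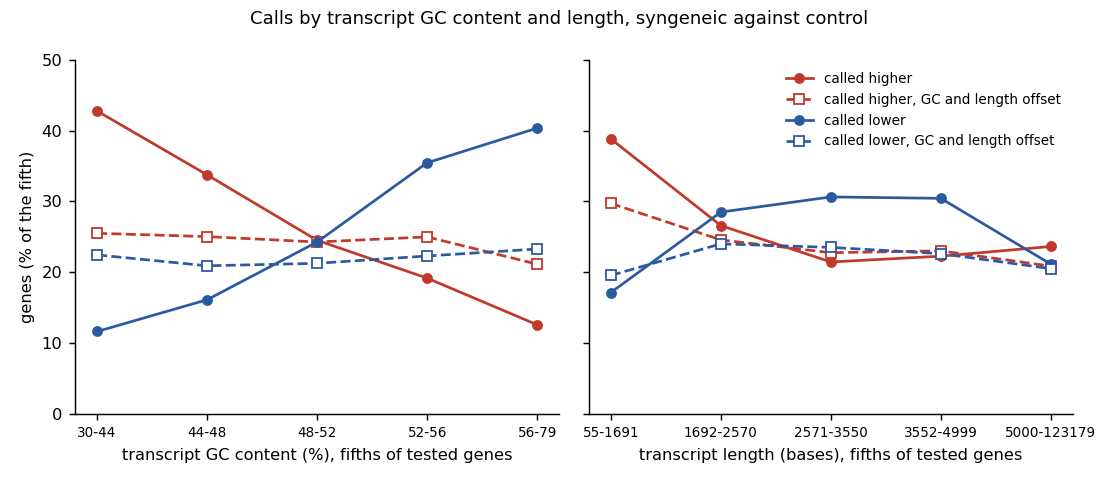
Percent of tested genes called higher (red) or lower (blue) in syngeneic microglia, by class of transcript GC content (left, %) and of transcript length (right, bases); filled circles and solid lines are the fit without an offset, open squares and dashed lines the fit with an offset for GC content and length. Without the offset, calls of higher genes fall from 42.8% to 12.6% from the lowest to the highest GC class, and with it they lie at 25.5% and 21.1%.

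Genes of cell division were higher in syngeneic microglia than in control microglia. All 24 mitotic genes of the list were called higher, with a median log2 fold change of 3.43, and 22 of 23 DNA replication genes were called higher and 0 lower, with a median of 1.96, where 26.4% of all tested genes were called higher and 25.6% lower. With the GC and length offset the counts were 24 higher and 0 lower for mitotic genes, and 22 higher and 0 lower for replication genes. Mki67, the proliferation marker that coats mitotic chromosomes, was at 0.966, 5.84, 4.43 and 6.77 CPM in control libraries 1 to 4, and 71.8, 87.3, 80.6 and 84.4 CPM in syngeneic libraries 1 to 4. Every syngeneic library was above every control library (log2 fold change 4.17 ± 0.41 (SE), adjusted p = 1.7e-06). Top2a, the topoisomerase that untangles replicated DNA, was at 10.3, 6.90, 8.21 and 7.26 CPM in control libraries 1 to 4, and 173, 176, 171 and 148 CPM in syngeneic libraries 1 to 4, again without overlap (log2 fold change 4.36 ± 0.17 (SE), adjusted p = 1.4e-12). Cdk1, the kinase that drives entry into mitosis, rose from 5.00 ± 1.78 to 62.2 ± 8.76 CPM (log2 3.63 ± 0.20). Prc1, a microtubule bundler of the dividing cell, rose from 4.49 ± 1.26 to 66.0 ± 15.4 CPM (log2 3.87 ± 0.23). Among replication genes, Rrm2, a ribonucleotide reductase subunit, rose from 5.87 ± 1.51 to 92.1 ± 24.4 CPM (log2 3.97 ± 0.21). Mcm6, a subunit of the replicative helicase, rose from 9.40 ± 3.39 to 111 ± 7.31 CPM (log2 3.55 ± 0.21). Mcm2, another subunit, rose from 18 ± 10.8 to 57.7 ± 18.5 CPM (log2 1.67 ± 0.37). Pcna, the sliding clamp of DNA polymerases, rose from 34.2 ± 5.12 to 145 ± 11.8 CPM (log2 2.08 ± 0.12). Thymidine kinase Tk1 rose from 4.46 ± 0.387 to 33.2 ± 4.92 CPM (log2 2.90 ± 0.16). Of the clustered histone genes, many of whose transcripts lack a poly(A) tail, 67 were listed and 19 tested. Among those tested 3 were higher and 3 lower, smaller shares than over all tested genes, and 13 were not called. Linker histone Hist1h1b was called higher at log2 2.70 ± 0.63 and Hist3h2a lower at log2 -1.37 ± 0.33.

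The promoters of some of these genes are printed to show the short elements known to drive cell cycle transcription. Promoters run from 250 bases before to 50 bases after the annotated start and are RefSeq sequences of build GRCm38.p6, written 5′ to 3′ on the gene's strand with matches in capitals on either strand. The letters TTTGAA, the cell cycle genes homology region bound by the MuvB complexes of G2 and mitosis, were found on at least 1 strand in 15 of the 20 mitotic genes with a promoter in the table (75.0%), all 20 of which were called higher with or without a match, against 14.5% of 10147 tested genes and 17.9% of all 32851 promoters. The letters TTTCCCGC or TTTGGCGC, forms of the E2F site of replication genes, were found in 7 of 20 replication genes (35%), against 3.54% of tested genes and 1.56% of all promoters. These matches are a description of the letters in this window, with no test. The first pair shows the homology region and the second pair the E2F site, in genes with 2 matches each.
Top2a promoter, chr11:99024140-99024439, minus strand: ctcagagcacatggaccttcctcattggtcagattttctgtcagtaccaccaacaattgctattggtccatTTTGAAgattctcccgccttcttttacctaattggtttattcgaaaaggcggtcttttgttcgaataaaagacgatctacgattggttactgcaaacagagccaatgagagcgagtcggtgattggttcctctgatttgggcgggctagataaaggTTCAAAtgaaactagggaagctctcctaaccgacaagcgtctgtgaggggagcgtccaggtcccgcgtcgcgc
Cdk1 promoter, chr10:69352863-69353162, minus strand: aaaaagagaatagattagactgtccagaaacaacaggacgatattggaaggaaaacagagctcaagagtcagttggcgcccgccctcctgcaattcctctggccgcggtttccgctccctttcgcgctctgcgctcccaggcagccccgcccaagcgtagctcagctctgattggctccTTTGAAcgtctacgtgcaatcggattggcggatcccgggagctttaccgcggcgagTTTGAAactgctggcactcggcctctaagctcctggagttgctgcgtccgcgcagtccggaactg
Mcm6 promoter, chr1:128359656-128359955, minus strand: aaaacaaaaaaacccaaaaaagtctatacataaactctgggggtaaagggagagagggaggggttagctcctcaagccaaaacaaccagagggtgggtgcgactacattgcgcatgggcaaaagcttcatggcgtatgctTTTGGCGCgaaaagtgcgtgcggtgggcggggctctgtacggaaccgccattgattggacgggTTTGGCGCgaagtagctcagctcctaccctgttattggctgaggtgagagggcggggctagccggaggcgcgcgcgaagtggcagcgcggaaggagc
Mcm3 promoter, chr1:20820263-20820562, minus strand: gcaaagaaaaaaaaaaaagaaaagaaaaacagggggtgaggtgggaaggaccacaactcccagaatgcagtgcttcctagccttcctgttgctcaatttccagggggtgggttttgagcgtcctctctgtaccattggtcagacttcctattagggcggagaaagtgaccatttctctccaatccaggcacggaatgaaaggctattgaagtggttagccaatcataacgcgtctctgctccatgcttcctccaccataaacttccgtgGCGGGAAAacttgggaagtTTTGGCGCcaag

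Many targets of p53 were higher in syngeneic microglia, while the transcript of p53 itself was lower. Of 33 tested members of the p53 list 17 were called higher and 5 lower, with a median log2 fold change of 1.15; with the offset the counts were 17 higher and 4 lower. Cdkn1a, which encodes the cyclin-dependent kinase inhibitor p21, was at 37.4, 34.2, 27.1 and 34.5 CPM in control libraries 1 to 4, and 271, 308, 274 and 295 CPM in syngeneic libraries 1 to 4. The groups did not overlap (log2 fold change 3.11 ± 0.095 (SE), adjusted p = 1.3e-13). Phlda3, an inhibitor of Akt signalling, was at 0.0248, 0.318, 0.313 and 0 CPM in control libraries 1 to 4, and 7.29, 9.48, 12.4 and 8.56 CPM in syngeneic libraries 1 to 4, close to 0 in every control library (log2 fold change 5.78 ± 0.61 (SE), adjusted p = 2.7e-07). Bax, which permeabilises the outer mitochondrial membrane in apoptosis, was at 58.1, 45.0, 45.0 and 50 CPM in control libraries 1 to 4, and 216, 224, 238 and 206 CPM in syngeneic libraries 1 to 4 (log2 fold change 2.16 ± 0.10 (SE), adjusted p = 6.2e-12). Ccng1, cyclin G1, rose from 36.5 ± 6.88 to 167 ± 23.6 CPM (log2 2.19 ± 0.13). The death receptor gene Fas was called higher at log2 4.30, the apoptosis effectors Pmaip1 and Bbc3 at log2 3.34 and log2 1.40, and the stress cytokine gene Gdf15 at log2 3.96. The 5 members called lower were Trp53, Btg2, Plk3, Ddit4 and Sesn1. Trp53, which encodes p53, fell from 245 ± 21.9 to 126 ± 5.90 CPM (log2 -0.96 ± 0.088). Btg2, an antiproliferative p53 target, fell from 317 ± 42.2 to 86.9 ± 4.02 CPM (log2 -1.87 ± 0.11). Mdm2, the ubiquitin ligase that degrades p53, was at 58.1 ± 1.93 CPM in control and 69.8 ± 9.23 CPM in syngeneic libraries (log2 fold change 0.26 ± 0.10 (SE), adjusted p = 0.0400). Leaving out 1 library ended the call of Mdm2 without library control 1, 2, 3 or 4, or syngeneic 1, 3 or 4 (adjusted p = 0.0510 to 0.137). With library totals in place of TMM factors, the call was lost for Mdm2 (adjusted p = 0.466). The call was lost with limma-voom in place of edgeR for Mdm2 (adjusted p = 0.0579). Calls lost with the 8 libraries fitted alone were those of Mdm2 (adjusted p = 0.0614). With no filter on low counts, the call was lost for Mdm2 (adjusted p = 0.0677). Calls that the GC and length offset ended were those of Mdm2 (log2 0.12, adjusted p = 0.336).

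DNA repair genes were called in both directions, as were all tested genes (26.4% higher and 25.6% lower). 10 of 29 tested members were called higher and 6 lower, with a median of 0.24; with library totals 7 were higher and 7 lower, and with the offset 9 and 6. Those higher included genes whose expression is known to peak in S phase and G2: Brca1, of homologous recombination, at log2 4.21, the checkpoint kinase gene Chek1 at log2 3.76, and H2afx, the histone marked at DNA breaks, at log2 2.67 ± 0.39. Those lower included Xrcc1, a scaffold of single-strand break repair, which fell from 40.9 ± 4.11 to 13 ± 2.97 CPM (log2 -1.66 ± 0.23). Atm, the kinase that senses double-strand breaks, was at 13.1 ± 3.79 CPM in control and 16.3 ± 3.55 CPM in syngeneic libraries and was not called (log2 fold change 0.31 ± 0.22 (SE), adjusted p = 0.260). Of the cell cycle inhibitor and senescence list 7 of 13 members were higher and 1 lower. Cdkn2a, whose products p16 and p19 restrain the cycle, was at 0.669, 0.345, 0.333 and 0.310 CPM in control libraries 1 to 4, and 1.89, 3.30, 1.07 and 1.39 CPM in syngeneic libraries 1 to 4, low in every library (log2 fold change 2.20 ± 0.68 (SE), adjusted p = 0.0110). Lmnb1, a nuclear lamina gene that falls in senescent cells, rose from 1.56 ± 0.689 to 8.90 ± 2.25 CPM (log2 2.51 ± 0.35). Ccnd1, cyclin D1, rose from 92.9 ± 3.85 to 288 ± 22.2 CPM (log2 1.63 ± 0.083). Of 22 survival and cell death genes 8 were higher and 5 lower, to be read against the same shares of all tested genes. Their median of 0.15 changed sign to -0.017 with library totals. With library totals 6 were higher and 6 lower, and with the offset 7 and 4. Bcl2a1d, an antiapoptotic relative of Bcl2, rose (log2 1.67 ± 0.085) and its near-identical paralogue Bcl2a1b at log2 1.74 ± 0.11; reads shared between such copies make their separate values uncertain. Gsdmd, the pore-forming protein of pyroptosis, fell from 182 ± 27.4 to 50.9 ± 4.28 CPM (log2 -1.83 ± 0.12). Mcl1, an antiapoptotic gene, fell (log2 -0.53 ± 0.11.) Bcl2 was not called (log2 fold change 0.16 ± 0.21 (SE), adjusted p = 0.543). Leaving out 1 library ended the call of Cdkn2a without library syngeneic 2 (adjusted p = 0.0519).

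Interferon-stimulated genes were higher in syngeneic microglia. Of 35 genes of the type I interferon response 25 were called higher and 1 lower, with a median log2 fold change of 2.27, and 26 higher and 0 lower with the offset. Isg15, a ubiquitin-like protein attached to other proteins, was at 6.19, 2.65, 4.53 and 5.58 CPM in control libraries 1 to 4, and 26.7, 60.2, 43.7 and 39.3 CPM in syngeneic libraries 1 to 4. All syngeneic libraries were above all control libraries, with a spread among them of over 2-fold (log2 fold change 3.16 ± 0.30 (SE), adjusted p = 7.7e-07). Ifitm3, a membrane protein that blocks virus entry, rose from 5.85 ± 0.834 to 104 ± 25.3 CPM (log2 4.15 ± 0.20). Ifi27l2a rose from 7.29 ± 2.12 to 114 ± 22.2 CPM (log2 3.96 ± 0.20). Ifit3, an inhibitor of viral translation and replication, rose from 6.88 ± 1.53 to 44.8 ± 11.6 CPM (log2 2.71 ± 0.22). Bst2, the tetherin that holds budding virus at the cell surface, rose from 40.3 ± 5.85 to 158 ± 14.2 CPM (log2 1.97 ± 0.11). Irf7, the transcription factor that amplifies type I interferon, rose from 7.74 ± 1.82 to 30.8 ± 10.4 CPM (log2 1.99 ± 0.21). Stat2, part of the signalling complex of the type I receptor, was the member called lower, at log2 -0.51. Of 17 genes more typical of interferon gamma 10 were higher and 2 lower, with a median of 1.25. Gbp2 and Ifi47, GTPases of cell-autonomous defence, were called higher at log2 1.29 ± 0.37 and log2 1.96 ± 0.18. Irf1, a transcription factor induced at once by interferon gamma, fell from 91.7 ± 12.1 to 54.8 ± 3.31 CPM (log2 -0.74 ± 0.12). Cd274, which encodes the checkpoint ligand PD-L1, was not called (10.6 ± 4.43 CPM in control and 10.9 ± 4.06 CPM in syngeneic libraries; log2 fold change 0.047 ± 0.29 (SE), adjusted p = 0.908).

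Promoters of 3 of these genes are printed because the interferon-stimulated response element, bound by STAT and IRF complexes, is what such genes are known to share. Its core, searched as GAAA, 2 bases of any kind and GAAA on both strands with overlapping matches counted, was found in 14 of the 24 type I interferon genes with a promoter in the RefSeq table (58.3%) and in 11 of the 19 of these called higher. The share was 3.87% among 10147 tested genes and 3.44% among all 32851 promoters. Capitals mark the matches, 2 in each of the sequences, which in Bst2 overlap and form 1 run.
Bst2 promoter, chr8:71537423-71537722, minus strand: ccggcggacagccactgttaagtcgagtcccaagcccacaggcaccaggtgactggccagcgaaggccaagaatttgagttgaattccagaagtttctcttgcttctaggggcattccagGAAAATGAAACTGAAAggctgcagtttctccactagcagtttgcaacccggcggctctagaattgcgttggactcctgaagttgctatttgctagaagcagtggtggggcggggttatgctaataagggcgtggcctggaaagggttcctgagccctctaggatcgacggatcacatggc
Ifitm3 promoter, chr7:141010695-141010994, minus strand: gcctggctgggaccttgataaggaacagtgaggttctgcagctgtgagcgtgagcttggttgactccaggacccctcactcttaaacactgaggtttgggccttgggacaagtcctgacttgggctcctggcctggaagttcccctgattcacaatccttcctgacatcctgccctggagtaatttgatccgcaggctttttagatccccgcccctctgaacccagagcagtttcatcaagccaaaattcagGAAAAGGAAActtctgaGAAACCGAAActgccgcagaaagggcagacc
Ifit3 promoter, chr19:34583279-34583578, plus strand: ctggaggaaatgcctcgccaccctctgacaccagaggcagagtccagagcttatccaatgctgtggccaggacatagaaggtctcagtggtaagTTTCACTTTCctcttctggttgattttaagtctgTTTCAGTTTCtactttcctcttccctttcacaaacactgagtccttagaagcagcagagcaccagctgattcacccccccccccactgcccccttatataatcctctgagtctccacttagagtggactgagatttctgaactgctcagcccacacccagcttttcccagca

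Chemokine genes had the second highest median of the 40 functional lists, after mitotic genes. Of 18 tested chemokine genes 14 were called higher and 0 lower, with a median log2 fold change of 3.33. Cxcl10, which attracts activated T cells through Cxcr3, was at 2.13, 2.71, 2.57 and 1.76 CPM in control libraries 1 to 4, and 36.1, 70.6, 35.7 and 75.8 CPM in syngeneic libraries 1 to 4. The syngeneic libraries formed a lower and a higher pair, both above control (log2 fold change 4.57 ± 0.33 (SE), adjusted p = 9.6e-08). Cxcl13, which attracts B cells, rose from 0.147 ± 0.120 to 28.1 ± 7.24 CPM (log2 fold change 7.58 ± 0.35 (SE), adjusted p = 2.1e-10), the steepest rise among the genes named here that had over 3 counts in each group. Cxcl11, a further Cxcr3 ligand, rose from 0.197 ± 0.295 to 11.1 ± 2.55 CPM (log2 5.88 ± 0.57). Cxcl9 had 1 count over the 4 control libraries and 788 over the syngeneic ones, a ratio of 789.6 with a 95% exact interval of 141 to 31228 for counting error. The control count was in library 1, without which the fitted log2 fold change moved from 8.99 to 10.52. Ccl5, which attracts T cells and monocytes, rose from 1.84 ± 0.589 to 56.3 ± 6.99 CPM (log2 4.91 ± 0.16). The monocyte attractant Ccl2 rose from 3.20 ± 0.956 to 34.8 ± 12.4 CPM (log2 3.43 ± 0.29). Chemokine receptors were few: 1 of 7 was higher, Ccr1 at log2 0.53 ± 0.13, and 2 were lower, among them Ccr6 at log2 -0.64 ± 0.089. With the GC and length offset Ccr1 was at log2 -0.0037 and not called. Of the cytokine genes 6 of 15 were higher and 2 lower, where 26.4% of all tested genes were called higher and 25.6% lower. Il1a rose from 125 ± 11.6 to 279 ± 19.8 CPM (log2 1.16 ± 0.076) and Il1b from 11 ± 1.48 to 29.9 ± 2.69 CPM (log2 1.45 ± 0.14), both encoding interleukin 1. Il6 rose from 5.91 ± 2.14 to 12.8 ± 3.34 CPM (log2 1.11 ± 0.26). Tnf was at 3.23 ± 1.07 CPM in control and 5.44 ± 1.99 CPM in syngeneic libraries and not called (log2 fold change 0.75 ± 0.31 (SE), adjusted p = 0.0532). Il16 fell from 332 ± 43.3 to 118 ± 4.76 CPM (log2 -1.50 ± 0.12). The fold change moved by over 1.5 times, to a log2 fold change of 7.62 for Cxcl11 without control 2. With the GC and length offset the call was lost for Il6 (log2 0.55, adjusted p = 0.0924). Tnf was called higher with RLE factors (log2 0.77, adjusted p = 0.0478), upper-quartile factors (log2 0.79, adjusted p = 0.0422) and DESeq2 (log2 0.77, adjusted p = 0.0419).

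Antigen presentation genes were partly higher. 13 of 17 tested genes of MHC class I presentation were called higher and 2 lower, with a median of 0.60. B2m, the shared light chain of class I molecules, rose from 1840.4 ± 109 to 5237 ± 463 CPM (log2 1.51 ± 0.066, and log2 0.86 with the offset). The class I heavy chain H2-K1 rose from 220.0 ± 30.3 to 566 ± 117 CPM (log2 1.36 ± 0.13), although class I heavy chains share sequence and reads between them may be misassigned. Tap2, a subunit of the transporter that loads class I peptides, fell from 113 ± 11.7 to 32.6 ± 8.76 CPM (log2 -1.80 ± 0.19). Of the class II list 5 of 12 were higher and 2 lower, where 26.4% of all tested genes were called higher and 25.6% lower. The list median was -0.0012, against -0.028 over all tested genes. With library totals 5 were higher and 4 lower, and with the offset 5 and 3. Cd74, the invariant chain of class II molecules, was at 53.8, 56.9, 61.4 and 69.4 CPM in control libraries 1 to 4, and 159.8, 233, 185 and 226 CPM in syngeneic libraries 1 to 4, with every syngeneic above every control library (log2 fold change 1.73 ± 0.11 (SE), adjusted p = 1.7e-09). H2-Aa, a class II alpha chain, rose from 5.27 ± 2.15 to 16.1 ± 5.50 CPM (log2 1.62 ± 0.31). H2-DMa, which loads class II peptides, rose from 247 ± 28.7 to 512 ± 29.3 CPM (log2 1.05 ± 0.090). Ciita, the master activator of class II transcription, was at 0.675 ± 0.828 CPM in control and 0.101 ± 0.202 CPM in syngeneic libraries and not called (log2 fold change -2.72 ± 1.20 (SE), adjusted p = 0.0641). Of 19 costimulation and checkpoint genes 7 were higher and 6 lower, to be read against the same shares of all tested genes. With library totals 6 were higher and 7 lower, and with the offset 7 and 5. Lgals9, which encodes galectin 9, rose from 540.4 ± 27.9 to 1087 ± 65.2 CPM (log2 1.01 ± 0.062). Cd86 rose (log2 0.27 ± 0.069) but was at log2 -0.13 with the offset and not called. The gene listed as 4632428N05Rik, which encodes the checkpoint receptor VISTA, fell from 2199.8 ± 192 to 876 ± 57.3 CPM (log2 -1.33 ± 0.069). Of 16 complement genes 15 were higher and 0 lower, with a median of 1.09; with library totals 11 were higher. C3, the central complement component, rose from 0.852 ± 0.583 to 4.50 ± 2.16 CPM (log2 2.37 ± 0.58). Cfb, complement factor B, rose from 1.42 ± 0.594 to 12.6 ± 3.63 CPM (log2 3.12 ± 0.27). C1qa, long known as abundant in microglia, rose by less, from 2693 ± 67.2 to 3207 ± 75.1 CPM (log2 0.25 ± 0.062). The receptor gene C3ar1 rose from 411 ± 28.6 to 687 ± 43.5 CPM (log2 0.74 ± 0.068). With library totals in place of TMM factors, the call was lost for C1qa (adjusted p = 0.188) and Cd86 (adjusted p = 0.198). The call was lost with limma-voom in place of edgeR for C3 (adjusted p = 0.0769). Ciita was called lower with library totals (log2 -2.90, adjusted p = 0.0473).

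**Figure D3:**
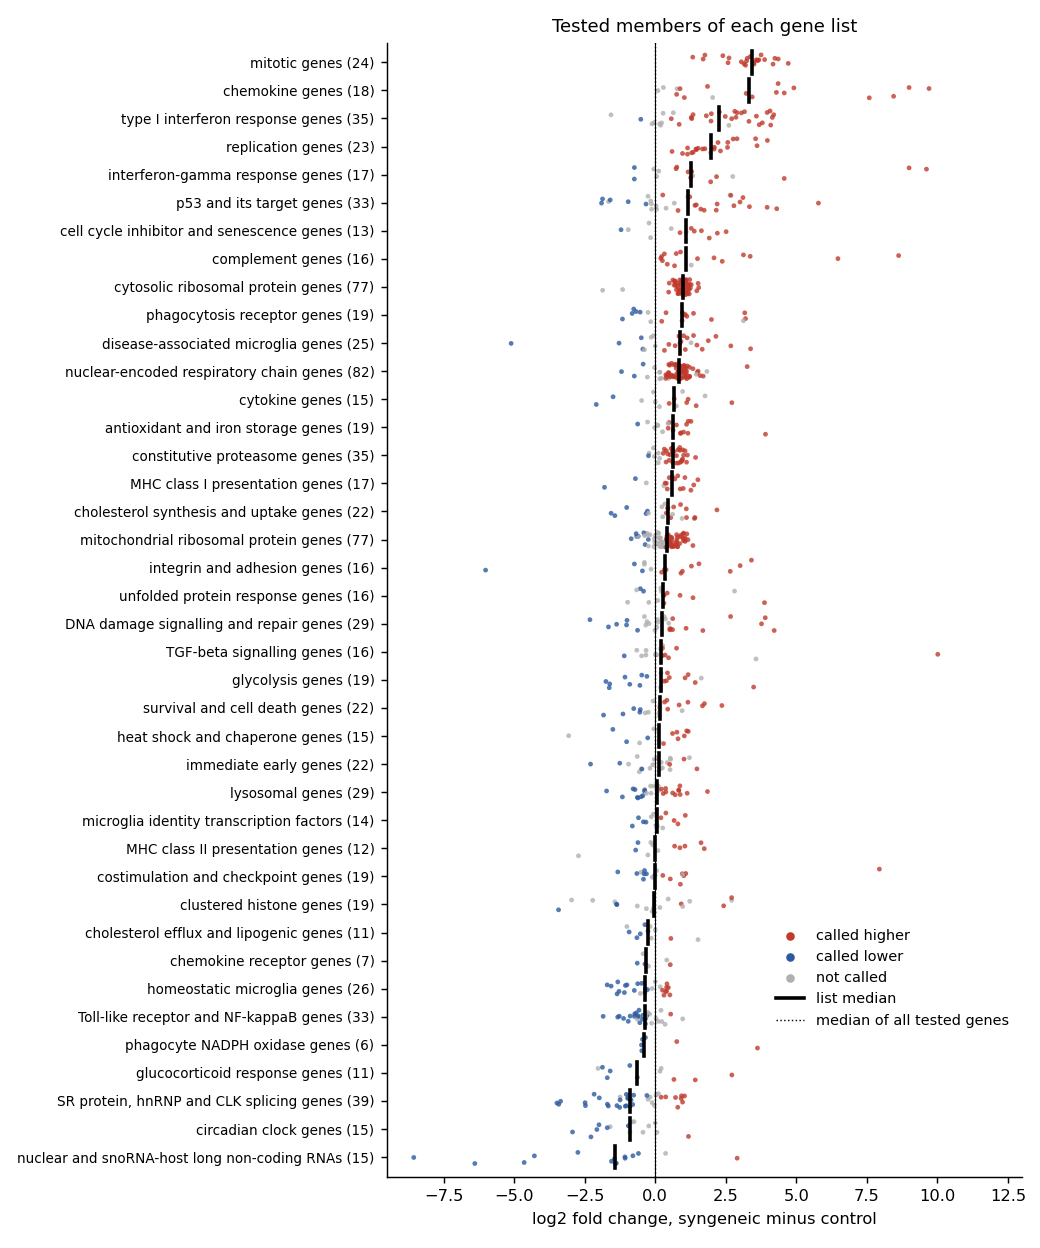
Log2 fold change (horizontal axis, syngeneic minus control) of the tested members of 40 functional gene lists, ordered by their median; each point is a gene, red called higher, blue called lower, grey not called, black bars are list medians, the dotted line is the median of all tested genes, and the number after each name is the count of tested members. Mitotic genes, with a median of 3.43, lie at the top and nuclear and snoRNA-host long non-coding RNAs, with -1.41, at the bottom.

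Genes of the homeostatic microglial state did not move as one. Of 26 tested members 8 were called higher and 14 lower, with a median of -0.36, and with the offset 4 higher and 17 lower. Csf1r, the receptor for the growth factors on which microglia depend, was at 11676, 10469.7, 12921 and 10882 CPM in control libraries 1 to 4, and 3126, 3511, 3509 and 3949 CPM in syngeneic libraries 1 to 4, a fall in every syngeneic library below every control library (log2 fold change -1.70 ± 0.076 (SE), adjusted p = 6.2e-12; log2 -1.13 with the offset). Tmem119, a surface protein of microglia, was at 4589, 4139, 3569 and 3581 CPM in control libraries 1 to 4, and 1242, 1324, 1387 and 1413 CPM in syngeneic libraries 1 to 4 (log2 fold change -1.57 ± 0.076 (SE), adjusted p = 1.7e-11; log2 -0.88 with the offset). Trem2, a lipid-sensing receptor of phagocytes, fell from 2059 ± 186 to 845 ± 68.4 CPM (log2 -1.28 ± 0.073). Cx3cr1 fell from 7007 ± 692 to 4549 ± 449.7 CPM (log2 -0.62 ± 0.078). P2ry12 rose from 12077 ± 1234 to 17282 ± 868 CPM (log2 fold change 0.52 ± 0.064 (SE), adjusted p = 2.1e-06), but with the offset it was at log2 -0.060 and not called. Fcrls, an Fc receptor-like gene that marks resident microglia in mice, rose from 892 ± 133 to 1178 ± 53.4 CPM (log2 0.40 ± 0.11). Transcription factors of microglial identity split, with 5 of 14 higher and 4 lower; with library totals 4 were higher and 5 lower, and with the offset 7 and 2. Their median of 0.045 changed sign to -0.12 with library totals and was 0.27 with the offset. Sall1, the factor that holds the microglial programme in place, fell from 504 ± 21.3 to 333 ± 8.44 CPM (log2 -0.60 ± 0.061). Spi1, which encodes the myeloid factor PU.1, rose from 29.0 ± 1.13 to 60.6 ± 5.54 CPM (log2 1.06 ± 0.13). Maf rose from 593 ± 67.6 to 1035 ± 63.6 CPM (log2 0.80 ± 0.085). Irf8, a further factor of the myeloid lineage, fell from 481 ± 37.0 to 359 ± 34.8 CPM (log2 -0.42 ± 0.084) but was at log2 0.19 with the offset and not called. Calls lost with library totals in place of TMM factors were those of Fcrls (adjusted p = 0.0766).

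**Figure D4:**
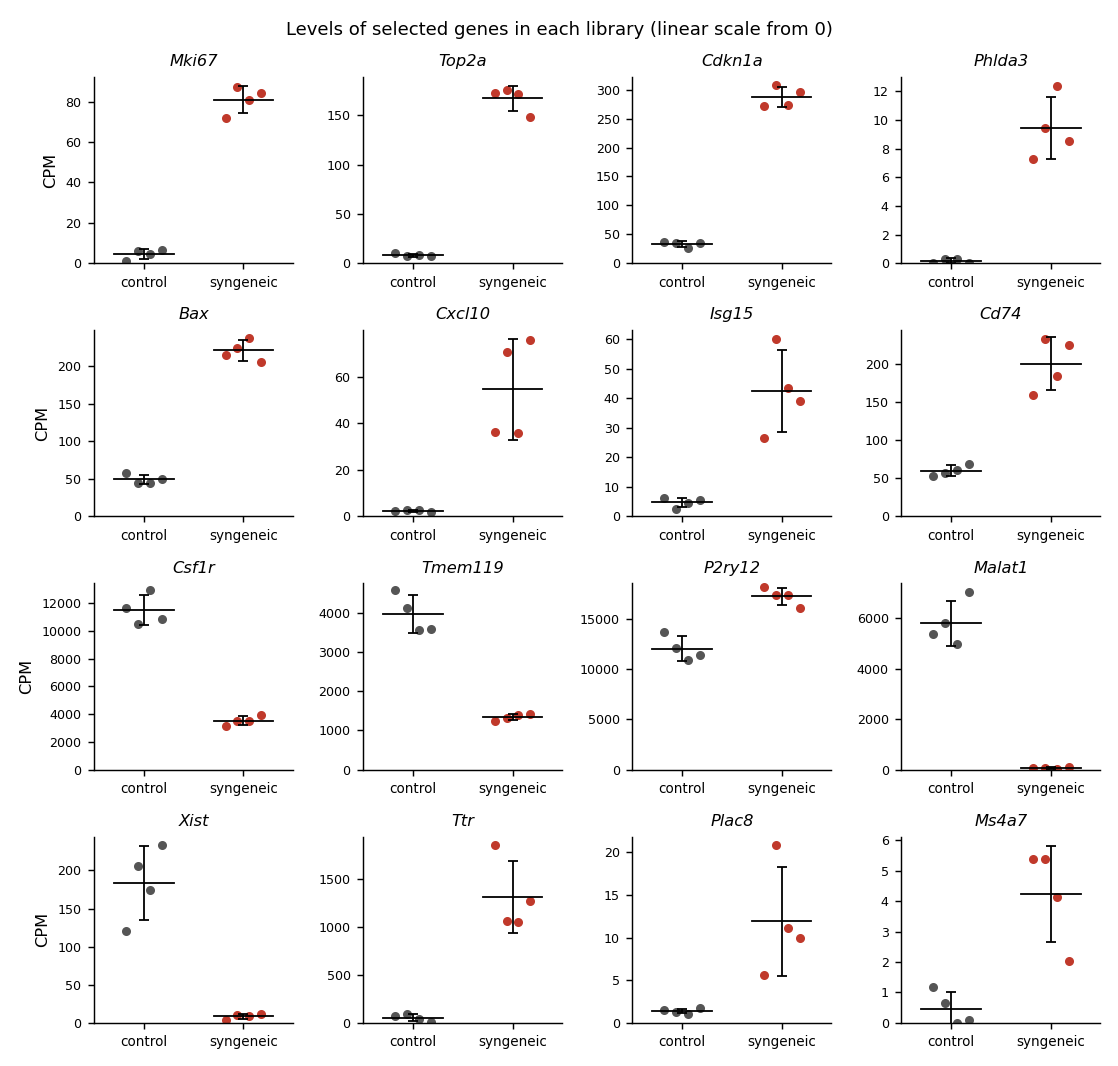
Level of 16 genes in each library (vertical axes, CPM, linear from 0; each axis has its own range); points are libraries, grey control and red syngeneic, horizontal lines are means and error bars SD over 4 mice. The groups are apart without overlap in all panels, with Csf1r, Tmem119, Malat1 and Xist lower and the other genes higher in syngeneic libraries.

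Genes of the disease-associated microglial state, a programme of phagocytic microglia near damage, were mostly higher. 16 of 25 tested members were called higher and 4 lower, with a median of 0.88. Spp1, which encodes osteopontin, rose from 9.85 ± 2.04 to 102 ± 19.0 CPM (log2 3.38 ± 0.15). Lipoprotein lipase Lpl rose from 14.0 ± 2.11 to 62.1 ± 7.88 CPM (log2 2.15 ± 0.13). Lyz2, lysozyme, rose from 213 ± 17.9 to 676 ± 43.3 CPM (log2 1.66 ± 0.082). Clec7a, the beta-glucan receptor dectin 1, rose from 24.9 ± 6.33 to 63.5 ± 6.75 CPM (log2 1.35 ± 0.14). Axl, a receptor for dying cells, rose from 37.9 ± 8.58 to 79.4 ± 22.8 CPM (log2 1.06 ± 0.20). Apoe, the lipid carrier that marks this state, was at 2086, 2700.1, 2092 and 2531 CPM in control libraries 1 to 4, and 2139.7, 1987, 2052 and 3207 CPM in syngeneic libraries 1 to 4. Syngeneic library 4 was high and the other syngeneic libraries were at or below the control level, so that Apoe was not called (log2 fold change -0.0036 ± 0.16 (SE), adjusted p = 0.989). Itgax was not called either (22 ± 3.37 CPM in control and 16.8 ± 2.95 CPM in syngeneic libraries; adjusted p = 0.0744). Ctsd, cathepsin D, fell from 20527 ± 2024 to 14554 ± 1409 CPM (log2 -0.50 ± 0.075), and was at log2 0.0092 with the offset and not called. Phagocytosis receptor genes were 11 higher and 5 lower of 19, to be read against the same shares of all tested genes. Fcer1g, the signalling chain of Fc receptors, rose from 968 ± 47.6 to 1940.1 ± 109 CPM (log2 1.0 ± 0.060). Pros1, which bridges dying cells to receptors, rose from 409 ± 27.3 to 791 ± 36.6 CPM (log2 0.95 ± 0.063). Mertk, a receptor for dying cells, fell from 459 ± 29.5 to 260.1 ± 10.9 CPM (log2 -0.82 ± 0.10). Of the 6 phagocyte oxidase genes 2 were higher and 4 lower: Cybb, its catalytic subunit, rose from 8.54 ± 2.51 to 105 ± 10.5 CPM (log2 fold change 3.62 ± 0.15 (SE), adjusted p = 5.6e-12). The regulator Rac2 rose (log2 0.76 ± 0.074), while the cytosolic subunit Ncf1 fell from 566 ± 47.3 to 404 ± 33.7 CPM (log2 -0.49 ± 0.083). Lysosomal genes were 12 higher and 10 lower of 29, with a median of 0.063 that was -0.10 with library totals; with library totals 10 were higher and 14 lower, and with the offset 14 and 8. Ctss and Lgmn, lysosomal proteases, rose (log2 0.87 ± 0.049 and log2 0.88 ± 0.062.) The GC and length offset ended the call of Ncf1 (log2 -0.012, adjusted p = 0.907). Itgax was called lower with library totals (log2 -0.56, adjusted p = 0.0135).

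Toll-like receptor and NF-kappaB genes were mostly lower or not called. 18 of 33 tested members were called lower and 1 higher, with a median of -0.38, and with the offset 3 higher and 15 lower. Rela, the p65 subunit of NF-kappaB, fell from 156 ± 18.4 to 71.4 ± 7.65 CPM (log2 -1.12 ± 0.11; log2 -0.34 with the offset). Tlr6, a receptor for bacterial lipopeptides, fell from 63.9 ± 12.6 to 25.4 ± 3.60 CPM (log2 -1.33 ± 0.18). Tlr4, the receptor for lipopolysaccharide, fell from 135 ± 8.91 to 98.5 ± 10.2 CPM (log2 -0.46 ± 0.11), and Irak2, a signalling kinase, fell (log2 -0.73 ± 0.10.) Cd14, the co-receptor of Tlr4, fell from 1096 ± 103 to 645 ± 12.6 CPM (log2 -0.77 ± 0.069). The member called higher was Map3k7, the kinase TAK1, at log2 0.54. In the transforming growth factor beta pathway 6 of 16 tested members were higher and 1 lower; with library totals 2 were higher and 3 lower, and with the offset 9 and 3. Nrros, which presents the latent cytokine on microglia, fell from 358 ± 55.8 to 167 ± 29.0 CPM (log2 -1.10 ± 0.13). The receptor gene Tgfbr2 rose from 238 ± 21.1 to 303 ± 12 CPM (log2 0.35 ± 0.074). Tgfb1 was not called (9.07 ± 1.34 CPM in control and 6.48 ± 1.24 CPM in syngeneic libraries). Tgfbr3, a co-receptor, had no counts in control and was at 3.26 ± 2.46 CPM in syngeneic libraries, at least 183-fold higher than the level that 3 counts over the control group would give (adjusted p = 6.9e-05, edgeR). Its fitted log2 fold change of 10.01, which depends on the prior count, was 9.42 without syngeneic library 4. Of the integrin and adhesion genes 10 of 16 were higher and 3 lower; with library totals 7 were higher and 6 lower, and with the offset 11 and 1. Vcam1, an adhesion molecule bound by Itga4, rose from 2.96 ± 0.451 to 31.3 ± 9.73 CPM (log2 3.41 ± 0.23). Itgb1 rose (log2 0.91 ± 0.081), and Itgam, which encodes CD11b, rose from 1133 ± 61.6 to 1415 ± 132 CPM (log2 0.32 ± 0.067). The call was lost with library totals in place of TMM factors for Itgam (adjusted p = 0.0539) and Tgfbr2 (adjusted p = 0.0681).

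Long non-coding RNAs of the nucleus were much lower in syngeneic microglia. Malat1, a transcript of nuclear speckles, was at 5387, 5800.4, 5006 and 7037 CPM in control libraries 1 to 4, and 79.1, 51.3, 31.1 and 114 CPM in syngeneic libraries 1 to 4, so that the lowest control library was far above every syngeneic library (log2 fold change -6.40 ± 0.51 (SE), adjusted p = 2.5e-06). Xist, the RNA that coats the inactive X chromosome of female cells, was at 121, 206, 174 and 233 CPM in control libraries 1 to 4, and 3.72, 9.69, 9.31 and 11.6 CPM in syngeneic libraries 1 to 4 (log2 fold change -4.42 ± 0.34 (SE), adjusted p = 1.2e-07). The 4 genes of the Y chromosome looked at were listed at 0 in all 8 libraries; since Rpl26 and Ndufs5, which every cell uses, were listed at 0 in them too, a symbol at 0 throughout may not have been counted. Neat1, the scaffold of paraspeckles, fell from 39.2 ± 5.13 to 1.55 ± 1.52 CPM (log2 -4.65 ± 0.99). Kcnq1ot1, an imprinted antisense RNA, fell from 37.7 ± 12.2 to 1.92 ± 0.859 CPM (log2 -4.28 ± 0.45). Gas5, a host of small nucleolar RNAs, fell from 266 ± 22.5 to 39.7 ± 2.04 CPM (log2 -2.74 ± 0.089). Of 15 tested members of this list 13 were called lower and 1 higher, with a median of -1.41, and 1 higher and 13 lower with the offset. Over all tested genes, 170 of 494 tested long non-coding RNA genes were called lower and 30 higher (median -0.99; 182 and 18 with the offset), against 2999 lower and 3306 higher of 12006 protein-coding genes. Of 28 tested small nucleolar RNA genes 27 were lower and 0 higher, with 8 lower under the offset, and of 40 microRNA genes 26 were lower and 2 higher, with 7 lower and 10 higher under the offset. Counts at the last 2 kinds of gene come from short loci and cannot be told apart from reads of their host transcripts. The fold change moved by over 1.5 times, to a log2 fold change of -5.61 for Neat1 without syngeneic 1.

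Splicing regulators were mostly lower. Of 39 SR protein, hnRNP and CLK genes 24 were called lower and 8 higher, with a median of -0.90, and 6 higher and 29 lower with the offset. Clk1, a kinase of SR proteins whose transcript is known to be held in the nucleus with introns retained, was at 443, 455, 488 and 459.8 CPM in control libraries 1 to 4, and 48.1, 39.2, 39.3 and 38.0 CPM in syngeneic libraries 1 to 4 (log2 fold change -3.49 ± 0.12 (SE), adjusted p = 2.4e-13). Rbm5, a splicing factor of the U2 step, was at 724, 767, 825 and 952 CPM in control libraries 1 to 4, and 76.4, 78.3, 65.3 and 85.3 CPM in syngeneic libraries 1 to 4 (log2 fold change -3.42 ± 0.10 (SE), adjusted p = 1.3e-13). Luc7l3 fell from 284 ± 24.1 to 50.6 ± 2.26 CPM (log2 -2.49 ± 0.10). The SR protein gene Srsf5 fell from 641 ± 6.75 to 269.8 ± 21.1 CPM (log2 -1.25 ± 0.082). The members called higher were hnRNP genes, among them Hnrnpk at log2 0.97 and Hnrnpd at log2 0.93. The 12 steepest falls among called genes without overlap whose mean log2 CPM was 2 or more, predicted genes, clone names, small RNAs and pseudogenes passed over, were of Malat1 and the following genes. They included Firre, an X-linked nuclear RNA, from 79.3 ± 14.6 to 0.860 ± 1.12 CPM (log2 -6.56 ± 0.87), and the small nucleolar RNA hosts Snhg20, from 64.4 ± 1.69 to 1.15 ± 0.191 CPM (log2 -5.81 ± 0.25), Snhg7 (log2 -5.69 ± 0.53) and Dancr (log2 -5.49 ± 0.74). Protein-coding genes among them were Acrbp, from 27.2 ± 0.572 to 0.228 ± 0.192 CPM (log2 -6.90 ± 0.68), the synaptobrevin gene Vamp1, from 21.1 ± 2.97 to 0.253 ± 0.254 CPM (log2 -6.40 ± 0.76), the adaptor gene Lime1 (log2 -5.47 ± 0.81), the sphingolipid enzyme gene Degs2 (log2 -5.46 ± 0.74), the tubulin ligase gene Ttll3 (log2 -5.15 ± 0.72), and Igflr1, from 23.4 ± 5.31 to 0.0496 ± 0.0854 CPM (log2 -8.83 ± 0.65). Ankrd23 had 5099 counts over the control and 2 over the syngeneic libraries, a syngeneic-to-control ratio of 3.9e-04 (95% exact interval 4.8e-05 to 0.00142, counting error only). Both syngeneic counts were in library 3, without which the fitted log2 fold change moved from -10.98 to -13.26. The sources used here do not say whether counting used strand, so reads of a gene that overlaps or lies antisense to one of these cannot be told apart from its own. The fold change moved by over 1.5 times, to a log2 fold change of -6.66 for Dancr without syngeneic 2, -6.48 for Degs2 without syngeneic 4, -8.03 for Firre without syngeneic 4, -11.06 for Igflr1 without syngeneic 4, -6.29 for Lime1 without syngeneic 1, -6.28 for Ttll3 without syngeneic 4 and -7.32 for Vamp1 without syngeneic 3.

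Genes of the translation machinery and of the respiratory chain were higher. 74 of 77 tested cytosolic ribosomal protein genes were called higher and 0 lower, with a median of 0.98 that was 0.64 with the offset. Rps19 was at 338, 302, 314 and 361 CPM in control libraries 1 to 4, and 1013, 927, 1008 and 875 CPM in syngeneic libraries 1 to 4, with no overlap (log2 fold change 1.54 ± 0.068 (SE), adjusted p = 5.7e-12). Rps6 rose from 156 ± 12.8 to 446 ± 39.3 CPM (log2 1.52 ± 0.075) and Rplp0 from 272 ± 15.5 to 418 ± 17.2 CPM (log2 0.62 ± 0.062). Transcripts of this family are short, with a median length of 914 bases, and processed copies elsewhere in the genome share sequence with them. Of 82 nuclear-encoded respiratory chain genes 70 were higher and 3 lower, with a median of 0.86, and 63 higher and 2 lower with the offset. Cox6a1 and Cox4i1, subunits of cytochrome oxidase, rose from 135 ± 7.27 to 378 ± 26.4 CPM (log2 1.49 ± 0.071) and from 231 ± 20.9 to 536 ± 14.1 CPM (log2 1.21 ± 0.066). Atp5f1, of the ATP synthase, rose from 176 ± 9.07 to 445 ± 29.1 CPM (log2 1.33 ± 0.072). Mitochondrial ribosomal protein genes were 42 higher and 7 lower of 77, and 26 higher and 13 lower with the offset. Mrpl33 rose (log2 1.12 ± 0.11) and Mrpl42 at log2 1.05 ± 0.10, the latter at log2 0.46 with the offset. Of 35 constitutive proteasome genes 28 were higher and 1 lower, with a median of 0.62; Psma1 rose from 96.4 ± 16.2 to 259 ± 7.83 CPM (log2 1.43 ± 0.10). Heat shock and chaperone genes were 7 higher and 3 lower of 15, with a median of 0.14 that was -0.027 with library totals and a mean of -0.030. Hsp90aa1 rose from 107 ± 9.61 to 241 ± 8.04 CPM (log2 1.17 ± 0.085) and the mitochondrial chaperonin Hspd1 from 105 ± 11.2 to 226 ± 8.83 CPM (log2 1.11 ± 0.088). Stress-induced Hspa1a was not called (0.892 ± 0.266 CPM in control and 0.104 ± 0.155 CPM in syngeneic libraries; adjusted p = 0.0966). Of the unfolded protein response list 7 of 16 were higher and 2 lower; with library totals 4 were higher and 3 lower, and with the offset 4 and 3. Edem1, which sends misfolded proteins to degradation, rose from 173 ± 23.1 to 437 ± 22.9 CPM (log2 1.34 ± 0.10), the chaperone Hspa5 was at 973 ± 157 CPM in control and 1200.4 ± 104 CPM in syngeneic libraries (log2 fold change 0.30 ± 0.11 (SE), adjusted p = 0.0237), and the stress phosphatase subunit Ppp1r15a fell from 21.0 ± 3.87 to 8.78 ± 0.498 CPM (log2 -1.26 ± 0.20). Leaving out 1 library ended the call of Hspa5 without library control 4, or syngeneic 1 or 2 (adjusted p = 0.0600 to 0.0874). Calls lost with library totals in place of TMM factors were those of Hspa5 (adjusted p = 0.246). The GC and length offset ended the call of Hspa5 (log2 0.15, adjusted p = 0.277). Hspa1a was called lower with limma-voom (log2 -4.19, adjusted p = 0.00653) and the 8 libraries fitted alone (log2 -3.08, adjusted p = 0.0498).

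Among metabolic lists, antioxidant and iron storage genes were 12 higher and 1 lower of 19. This and the following lists are to be read against 26.4% higher and 25.6% lower of all tested genes. Prdx1, a peroxidase, rose from 260.0 ± 13.9 to 584 ± 17.7 CPM (log2 1.17 ± 0.067). The ferritin chain Fth1 rose from 1542 ± 109 to 3088 ± 144 CPM (log2 1.0 ± 0.062). The metallothionein Mt1 rose from 41.3 ± 3.22 to 110.3 ± 6.82 CPM (log2 1.42 ± 0.10). Hmox1, the haem-degrading enzyme, was not called (68.5 ± 12.2 CPM in control and 56.7 ± 8.31 CPM in syngeneic libraries). Glycolysis genes were 8 higher and 8 lower of 19, and 8 higher and 3 lower with the offset; Gapdh rose from 211 ± 12.7 to 564 ± 25.2 CPM (log2 1.41 ± 0.10), Ldha from 180.0 ± 6.55 to 374 ± 48.5 CPM (log2 1.06 ± 0.13) and Pgk1 from 33.7 ± 4.83 to 75.4 ± 10.6 CPM (log2 1.16 ± 0.14). Cholesterol synthesis and uptake genes were 11 higher and 5 lower of 22, with Idi1, of the isoprenoid pathway, at log2 2.18 ± 0.30. Efflux and lipogenic genes were 1 higher and 5 lower of 11, and 1 higher and 1 lower with the offset, under which the median of -0.26 changed sign to 0.0033. The exporter Abca1 rose from 183 ± 36.4 to 269 ± 18.7 CPM (log2 0.55 ± 0.12). Nr1h2, which encodes an LXR receptor, fell from 85.1 ± 3.48 to 44.8 ± 5.85 CPM (log2 -0.93 ± 0.11). Clock genes were 1 higher and 6 lower of 15, with a median of -0.90: Nr1d1, Per3 and Cry2, repressors of the clock, fell (log2 -2.93 ± 0.53, log2 -2.0 ± 0.20 and log2 -2.28 ± 0.41), and the activator Arntl was at log2 -0.83 ± 0.35 and not called (adjusted p = 0.0543). The time of day of killing was not given in the sources used here. Of the glucocorticoid response list 3 of 11 were higher and 5 lower: Tsc22d3 and Fkbp5, induced by glucocorticoids, fell from 206 ± 31.3 to 56.2 ± 14.1 CPM (log2 -1.87 ± 0.17) and from 71.6 ± 29.0 to 38.3 ± 6.95 CPM (log2 -0.90 ± 0.23). The receptor gene Nr3c1 rose from 123 ± 12.9 to 194 ± 10.9 CPM (log2 0.66 ± 0.093). Immediate early genes, which tissue handling can induce, were 3 higher and 3 lower of 22, with a median of 0.12 that was -0.053 with library totals and a mean of -0.0030; with library totals 3 were higher and 5 lower, and with the offset 5 and 3. Jun rose from 13 ± 4.53 to 26.3 ± 2.70 CPM (log2 1.02 ± 0.22). Zfp36 fell from 218 ± 23.5 to 44.4 ± 9.76 CPM (log2 -2.29 ± 0.14). Fos and Egr1 were not called (1.32 ± 1.04 CPM in control and 1.58 ± 1.70 CPM in syngeneic libraries for Fos). Calls that the GC and length offset ended were those of Fkbp5 (log2 -0.53, adjusted p = 0.0664). Arntl was called lower with library totals (log2 -1.0, adjusted p = 0.0227) and limma-voom (log2 -0.89, adjusted p = 0.0271). Hmox1 was called lower with library totals (log2 -0.44, adjusted p = 0.0162).

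Transcripts of cells other than microglia differed between the groups, most of all those of the choroid plexus, the epithelium that secretes cerebrospinal fluid. All 12 tested markers of 13 were called higher, and their summed level was 21.8 to 147 CPM in control and 1453 to 2537 CPM in syngeneic libraries. Ttr, transthyretin, the most abundant of them, was at 72.8, 92.3, 37.4 and 12.2 CPM in control libraries 1 to 4, and 1854, 1062, 1058 and 1272 CPM in syngeneic libraries 1 to 4. Library 1 was the highest of the syngeneic group and control library 4 the lowest of all (log2 fold change 4.61 ± 0.58 (SE), adjusted p = 7.6e-05). Sostdc1 and Folr1, further markers of this epithelium, rose from 2.90 ± 1.71 to 37.7 ± 16.1 CPM (log2 3.7 ± 0.46) and from 0.731 ± 0.228 to 7.35 ± 4.50 CPM (log2 3.32 ± 0.50). Of the 12 steepest rises within the same limits of overlap, level and kind of gene as the falls above, several belong to genes known from choroid plexus, meninges, astrocytes or neurons. Kl, which encodes klotho, rose from 0.335 ± 0.525 to 12.3 ± 5.53 CPM (log2 5.2 ± 0.87). The growth factor Igf2 rose from 0.282 ± 0.326 to 10.4 ± 5.32 CPM (log2 5.22 ± 0.94), the prostaglandin synthase Ptgds from 0.357 ± 0.231 to 17.1 ± 4.83 CPM (log2 5.58 ± 0.47). The sodium pump regulator Fxyd1 rose from 0.192 ± 0.141 to 8.01 ± 1.41 CPM (log2 5.39 ± 0.70). The astrocytic glutamate transporter Slc1a2 rose from 0.0962 ± 0.120 to 12.6 ± 5.54 CPM (log2 6.94 ± 0.71). Carboxypeptidase Cpe rose from 0.236 ± 0.427 to 8.94 ± 1.28 CPM (log2 5.27 ± 0.90). Gpm6a, a neuronal membrane protein, went from 0 counts in control to 16.4 ± 4.72 CPM, at least 915-fold above the level of 3 counts over the control group. The remaining 2 of these 12 rises, Cxcl13, Cxcl11 and Phlda3 described above being the others, were of Ass1, which makes argininosuccinate, and Fam198b. They rose from 0.361 ± 0.435 to 11.4 ± 3.90 CPM (log2 4.95 ± 0.64) and from 0.241 ± 0.133 to 9.48 ± 2.85 CPM (log2 5.29 ± 0.41). The fold change moved by over 1.5 times, to a log2 fold change of 5.71 for Ass1 without control 2, 8.42 for Cpe without control 2, 5.86 for Igf2 without control 2, 7.19 for Kl without control 2 and 7.81 for Slc1a2 without control 1.

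Neuron markers summed to 1.65 to 3.15 CPM in control and 8.65 to 16.5 CPM in syngeneic libraries, with 4 of 7 tested higher, and astrocyte markers to 787 to 971 CPM and 702 to 816 CPM, with 6 of 10 higher and 1 lower. The astrocyte sum is nearly all Glul, which was lower (543 ± 57.5 CPM in control and 419 ± 27.0 CPM in syngeneic libraries), and Slc1a3, which was not called (293 ± 32.7 CPM in control and 310.5 ± 37.5 CPM in syngeneic libraries). Aldoc, Aqp4 and S100b, at or under 1 CPM in control, were higher at log2 3.48 ± 0.59, log2 3.28 ± 1.20 and log2 6.12 ± 0.74. Among neuronal genes Snap25, a synaptic protein, rose from 0.873 ± 0.592 to 5.31 ± 2.97 CPM (log2 2.60 ± 0.58). Gfap, the astrocyte filament, was at 0.818, 0.0796, 0.313 and 0 CPM in control libraries 1 to 4, and 1.29, 1.01, 5.56 and 0.556 CPM in syngeneic libraries 1 to 4, high in syngeneic library 3 (log2 fold change 2.77 ± 0.90 (SE), adjusted p = 0.0142). Oligodendrocyte markers summed to 146 to 153 CPM and 115 to 178 CPM, ranges that overlap, with 3 of 6 higher and 1 lower; with library totals 1 were higher and 2 lower, and with the offset 3 and 1. Mbp, myelin basic protein, was at 26.4 ± 5.30 CPM in control and 41.3 ± 13.3 CPM in syngeneic libraries (log2 0.64 ± 0.20). Mag, a myelin adhesion protein, was the member called lower (log2 -1.15 ± 0.18). Endothelial and mural markers summed to 33.4 to 47.1 CPM and 25.1 to 46 CPM, with 5 of 14 higher and 4 lower; with library totals 3 were higher and 4 lower, and with the offset 4 and 2. Pdgfrb, a receptor of pericytes, fell from 12.7 ± 2.57 to 2.32 ± 0.952 CPM (log2 -2.45 ± 0.38). Cldn5, which seals brain endothelium, had 0 counts in control and 14 over the syngeneic libraries. Ependymal markers summed to 0 to 0.124 CPM and 0.345 to 1.56 CPM. Leaving out 1 library ended the call of Aqp4 without library control 1, 3 or 4, or syngeneic 2 or 4 (adjusted p = 0.0528 to 0.0722), Gfap without library syngeneic 3 (adjusted p = 0.118) and Mbp without library syngeneic 2 (adjusted p = 0.0660). The fold change moved by over 1.5 times, to a log2 fold change of 4.14 for Aldoc without control 2, 4.92 for Aqp4 without control 2, 3.90 for Gfap without control 1 and 7.07 for S100b without control 1. Calls lost with library totals in place of TMM factors were those of Mbp (adjusted p = 0.0641). With the 8 libraries fitted alone, the call was lost for Gfap (adjusted p = 0.0542).

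Markers of blood-derived myeloid cells were low but in part higher. Monocyte markers summed to 24.6 to 28.8 CPM in control and 54.1 to 83.5 CPM in syngeneic libraries, with 5 of 10 tested higher and 0 lower. The defining markers Ly6c2 and Ccr2 were not called: Ly6c2 was at 0.0381 ± 0.0638 CPM in control and 0.122 ± 0.229 CPM in syngeneic libraries, and Ccr2 at 6.99, 11.2, 7.39 and 12.3 CPM in control libraries 1 to 4, and 6.35, 10, 9.66 and 6.01 CPM in syngeneic libraries 1 to 4, with overlapping groups (log2 fold change -0.24 ± 0.38 (SE), adjusted p = 0.629). Plac8 was at 1.49, 1.27, 1.08 and 1.73 CPM in control libraries 1 to 4, and 5.66, 20.8, 11.2 and 9.90 CPM in syngeneic libraries 1 to 4 (log2 fold change 3.10 ± 0.32 (SE), adjusted p = 2.3e-07). Ms4a4c, an interferon-inducible gene of monocytes, rose from 7.63 ± 1.82 to 30.1 ± 6.26 CPM (log2 1.98 ± 0.20). Of 14 markers of macrophages that engraft the irradiated brain from bone marrow 8 were higher and 2 lower, and 5 higher and 2 lower with the offset. Their sum, 3723 to 4248 CPM in control and 3648 to 4724 CPM in syngeneic libraries, overlapped between the groups and consists largely of transcripts that microglia carry as well, Apoe among them. Ms4a6c and Ms4a6d, members of the same family of membrane proteins as Ms4a7, rose from 16.5 ± 3.85 to 72.2 ± 12.6 CPM (log2 2.13 ± 0.15) and from 224 ± 21.3 to 432 ± 31.3 CPM (log2 0.95 ± 0.081). With the offset Ms4a6d was at log2 0.34 and still called higher. Ms4a7, which engrafted macrophages express and resident microglia largely lack, was at 1.16, 0.637, 0 and 0.0776 CPM in control libraries 1 to 4, and 5.39, 5.38, 4.13 and 2.02 CPM in syngeneic libraries 1 to 4, with no overlap (log2 fold change 3.19 ± 0.74 (SE), adjusted p = 0.00212). Clec12a, a further such marker, was at 0.192 ± 0.212 CPM in control and 1.02 ± 0.277 CPM in syngeneic libraries (log2 fold change 2.40 ± 0.85 (SE), adjusted p = 0.0229). Cd38, also a key marker of this list, was near 0 in most libraries and not called (log2 0.58, adjusted p = 0.764, edgeR). Its sign changed with limma-voom and with the replicate block. Border-associated macrophage markers summed to 976 to 1103 CPM and 1267 to 1442 CPM, with 5 of 11 higher and 1 lower. This sum is nearly all Maf and Stab1. Maf, which rose, was described above among factors of microglial identity, so the sum does not measure border-associated macrophages alone. Mrc1, the mannose receptor, rose from 1.72 ± 1.30 to 19.2 ± 3.97 CPM (log2 3.49 ± 0.47). Siglec1, which interferon also induces, rose from 0.83 ± 0.271 to 6.37 ± 2.77 CPM (log2 2.95 ± 0.31). Stab1, a scavenger receptor, fell from 402 ± 37.4 to 251 ± 33.7 CPM (log2 -0.68 ± 0.093). Cd163 was not called (0.304 ± 0.607 CPM in control and 0.870 ± 0.628 CPM in syngeneic libraries), and Lyve1 was above 0 in 1 of the 8 libraries, syngeneic 1. Leaving out 1 library ended the call of Clec12a without library control 3 (adjusted p = 0.0609). The fold change moved by over 1.5 times, to a log2 fold change of 3.35 for Clec12a without control 1 and 4.22 for Ms4a7 without control 1. The call was lost with the 8 libraries fitted alone for Clec12a (adjusted p = 0.0812). With the GC and length offset the call was lost for Clec12a (log2 1.92, adjusted p = 0.0685).

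T cell and natural killer cell markers with counts were low. Cd3e and Cd3g of T cells and Ncr1 of natural killer cells were listed at 0 in all 8 libraries, as were Rpl26 and Ndufs5, so that a symbol at 0 throughout does not show that the transcript was absent. For a symbol that was counted, 3 counts over the 4 libraries of a group would correspond to 0.0179 CPM in control and 0.0179 CPM in syngeneic libraries, limits that cover counting error only. T cell markers summed to 1.39 to 2.53 CPM and 0.278 to 4.24 CPM, natural killer cell markers to 0 to 1.57 CPM and 0 to 1.97 CPM, and neutrophil markers to 0.0531 to 28.1 CPM and 0.646 to 8.31 CPM, each with overlapping groups. Cd3d had 0 counts in control and 18 over the syngeneic libraries. Of 2 T cell markers tested, Cd2 was called higher, from 0 counts in control to 0.348 ± 0.428 CPM (adjusted p = 0.0385, edgeR), with counts in syngeneic libraries 2 and 3. The B and plasma cell list summed to 107 to 134 CPM and 129 to 155 CPM, nearly all from Bank1, Cd79b and Tnfrsf17. Bank1 was called higher (log2 0.47, adjusted p = 0.0150, edgeR) and Cd79b lower (log2 -0.58, adjusted p = 0.0409, edgeR). Both calls were lost with the GC and length offset. Haemoglobin genes, which mark blood, were likewise listed at 0 in all 8 libraries. Flt3, a receptor of dendritic cells and their progenitors, fell from 15.4 ± 2.18 to 1.15 ± 0.624 CPM (log2 -3.75 ± 0.40), and the dendritic cell list had 1 of 5 tested members lower and 0 higher. Leaving out 1 library ended the call of Cd2 without library control 1, 2, 3 or 4, or syngeneic 2 or 3 (adjusted p = 0.0621 to 0.0855). With limma-voom in place of edgeR, the call was lost for Cd2 (adjusted p = 0.223). Calls that the GC and length offset ended were those of Cd2 (log2 6.74, adjusted p = 0.0542).

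**Figure D5:**
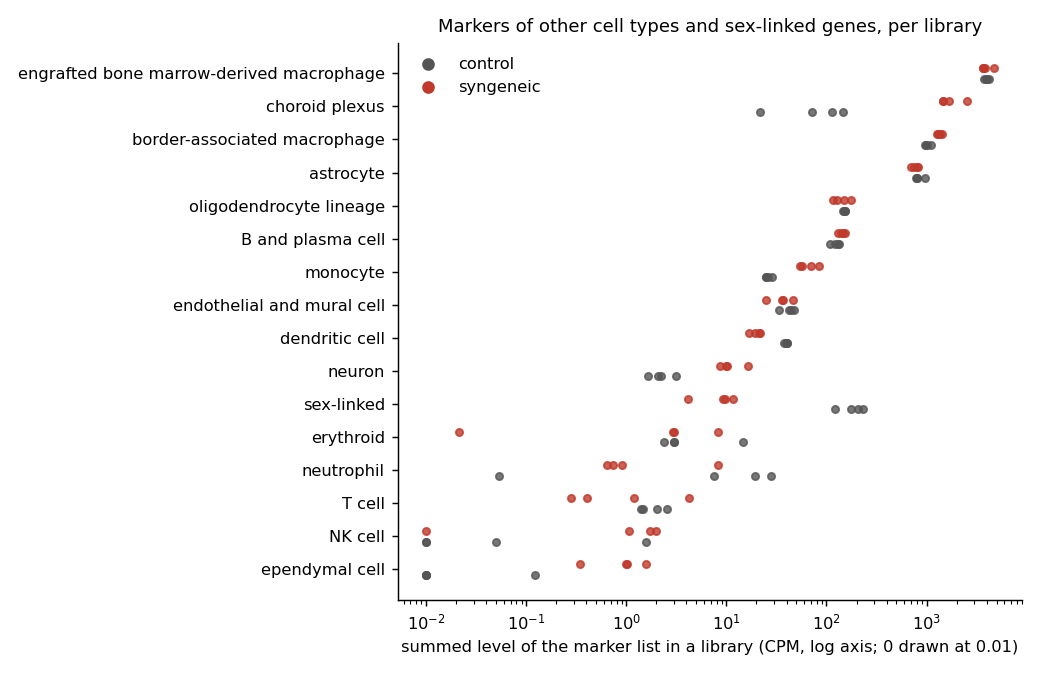
Summed level (horizontal axis, CPM, log axis, with 0 drawn at 0.01) of 16 lists, 15 of markers of other cell types and 1 of sex-linked genes, in each of the 8 libraries; grey points are control and red points syngeneic libraries. Choroid plexus markers are at 21.8 to 147 CPM in control and 1453 to 2537 CPM in syngeneic libraries, and the sex-linked list, which is nearly all Xist, is lower in every syngeneic library.

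Levels in the recipients of allogeneic cells, given as control, syngeneic and allogeneic means, show which of these values were shared by both kinds of transplant; the comparisons of either group with control share the 4 control libraries and are not independent. Cdkn1a was at 33.3 ± 4.42, 287 ± 17.5 and 297 ± 5.29 CPM (allogeneic minus syngeneic 0.049, adjusted p = 0.783). Mki67 was at 4.50 ± 2.55, 81.0 ± 6.76 and 65.0 ± 13.1 CPM (allogeneic minus syngeneic -0.32, adjusted p = 0.629). Malat1 was at 5808 ± 882, 69.0 ± 36.1 and 82.4 ± 35.1 CPM (allogeneic minus syngeneic 0.26, adjusted p = 0.760). Csf1r was at 11487 ± 1079, 3524 ± 336 and 2878 ± 170.2 CPM (allogeneic minus syngeneic -0.29, adjusted p = 0.00930). Values of 3 genes of the interferon and antigen presentation lists lay further apart. Cd74 was at 60.4 ± 6.75, 201 ± 34.8 and 13684 ± 1467 CPM (allogeneic minus syngeneic 6.09, adjusted p = 1.8e-14). Cxcl10 was at 2.29 ± 0.432, 54.5 ± 21.7 and 327 ± 95.7 CPM (allogeneic minus syngeneic 2.58, adjusted p = 2.1e-05), and Isg15 was at 4.74 ± 1.55, 42.4 ± 13.9 and 210.2 ± 60.0 CPM (allogeneic minus syngeneic 2.31, adjusted p = 3.5e-05). P2ry12 was at 12077 ± 1234, 17282 ± 868 and 9078 ± 393 CPM (allogeneic minus syngeneic -0.93, adjusted p = 4.6e-09). Ttr was at 53.7 ± 35.8, 1312 ± 375 and 446 ± 106 CPM (allogeneic minus syngeneic -1.56, adjusted p = 0.0662), with the choroid plexus sum at 425 to 802 CPM in allogeneic libraries. An adjusted p above 0.05 here does not show that the transplanted groups were alike.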

How the data were processed

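RNA of microglia sorted by flow cytometry was sequenced, and the authors deposited whole-number counts per gene symbol for 12 libraries, used here as deposited. Per the submitters' processing notes, Trimmomatic 0.36, STAR 2.5.2b and build mm9 were used; the counting tool, annotation and strand setting were not given in the sources used here. All columns were mapped to samples by name. Symbols were matched to RefSeq directly (23116) or through a synonym (1095), and 117 were not matched. Transcript GC content and length came from GENCODE models of build GRCm38 and were set for 23963 symbols.

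Genes passing edgeR's filter at a minimum count of 10 were fitted with edgeR 4.0.16 (R 4.3.3) over the 12 libraries of 3 groups, with TMM factors, robust quasi-likelihood dispersions and no covariate, so that the allogeneic libraries shared in the estimate of the spread. The syngeneic minus control contrast was adjusted by Benjamini-Hochberg over all 12695 tested genes. Where a group had 0 counts, folds are bounds against 3 counts over the group, and where it had 1 to 3 counts, ratios carry an exact interval. Library composition was tested by exact permutation of 8 libraries; spreads over GC and length used log2(CPM + 0.1). Counts were simulated for 12643 genes of this comparison, with 100 genes changed by log2 1, 100 by log2 2 and the rest unchanged. Of the changed genes 59.0% and 83.0% were called, and 5.33% of calls were false. In the data 52.1% of genes were called and the groups differed by GC content, which was not simulated. These rates need not hold for the data.

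Named genes were the 12 steepest rises and falls among called genes without overlap between the groups whose mean log2 CPM was 2 or more (predicted genes, clone names, small RNAs and pseudogenes passed over), up to 3 called members of each of 56 gene lists with the smallest p, and key members of each list. Genes outside this rule (Fas, Pmaip1, Bbc3, Gdf15, Plk3, Ddit4, Sesn1, Brca1, Chek1, Stat2, Map3k7, Hnrnpk, Hnrnpd, Slc1a3, Glul, Tnfrsf17 and Mcm3) were chosen after their values were seen. The comparison, the lists and their key members were chosen with earlier results of these data known. Alternatives were RLE, upper-quartile and no factors, other filters, DESeq2 1.42.0, limma-voom (limma 3.58.1), a fold change limit, an offset for GC content and length (loess, span 0.3), the 8 libraries alone, a replicate block and leaving out each library. The share of Rn45s and a fit without it were added after seeing the data. Mitochondrially encoded genes and 2 list genes were not analysed here, and results of some further genes are not reported here.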

Additional observations from a re-analysis of the deposited data

Results flagged for a closer look

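A library far from the other 3 of its group, by Dixon's test at 95%, was looked for in 544 groups of values and found in 58. For normally distributed values chance alone gives about 1 in 20. Many of these values rest on few counts, and a group with 1 value above 0 and the other 3 at 0 is always found. The count of 58 can therefore not be set against that rate. Values are CPM, followed by the number of the library and, in brackets, the range of the other 3. No explanation was tested for any of them. In control libraries the highest value stood apart for Cd163 (1.21 in library 3 [0]), Cd38 (0.198 in library 1 [0 to 0.0265]), Cdkn2a (0.669 in library 1 [0.310 to 0.345]), Cpe (0.876 in library 2 [0 to 0.0496]) and Cxcl11 (0.637 in library 2 [0 to 0.0784]). Further such genes were Cxcl9 (0.0248 in library 1 [0]), Foxj1 (0.124 in library 1 [0]), Jun (19.8 in library 1 [10.2 to 11.1]), Kl (1.11 in library 2 [0 to 0.176]) and Lgals9 (582 in library 1 [523 to 529]). It was seen too for Lmnb1 (2.59 in library 4 [1.08 to 1.33]), Ly6a (1.59 in library 2 [0.347 to 0.490]), Ly6c2 (0.133 in library 2 [0 to 0.0196]), Msmo1 (58.6 in library 1 [40.7 to 42.3]) and Rpl7a (245 in library 3 [233 to 235]). Others were S100b (0.198 in library 1 [0.0265 to 0.0517]), Slco1a4 (0.0496 in library 1 [0]), Sod1 (189 in library 4 [166 to 168]), Stmn2 (0.103 in library 4 [0]) and Tlr6 (82.7 in library 3 [55.8 to 59.2]). In syngeneic libraries the highest value stood apart for Ankrd23 (0.0547 in library 3 [0]), Apoe (3207 in library 4 [1987 to 2139.7]), Cd38 (0.354 in library 4 [0 to 0.0274]), Cd79a (0.156 in library 1 [0]) and Ciita (0.404 in library 4 [0]). Further such genes were Clk1 (48.1 in library 1 [38.0 to 39.3]), Dbp (0.980 in library 1 [0.495 to 0.547]), Fn1 (2.32 in library 1 [1.04 to 1.16]), Folr1 (14.0 in library 1 [4.39 to 6.02]) and Gapdh (601 in library 2 [548 to 554]). It was seen too for Gfap (5.56 in library 3 [0.556 to 1.29]), Ifi47 (9.69 in library 3 [7.56 to 7.65]), Igf2 (18.4 in library 1 [7.55 to 8.01]), Igflr1 (0.177 in library 4 [0 to 0.0215]) and Ly6c2 (0.465 in library 3 [0 to 0.0223]). Others were Lyve1 (1.05 in library 1 [0]), Neat1 (3.81 in library 1 [0.493 to 1.03]), S100a9 (2.0 in library 4 [0.111 to 0.280]), Snap25 (9.73 in library 2 [3.41 to 4.08]) and Sostdc1 (61.6 in library 1 [26.4 to 32]). The same held for Ttll3 (1.69 in library 4 [0.192 to 0.401]). In control libraries the lowest value stood apart for Cox6a1 (124 in library 2 [137 to 139]), Gapdh (192 in library 2 [216 to 219.6]), Mrpl42 (42.6 in library 2 [54.1 to 55.1]), Prc1 (2.60 in library 2 [5.05 to 5.2]) and Rela (128 in library 2 [162 to 169]). In syngeneic libraries the lowest value stood apart for B2m (4546 in library 1 [5421 to 5534]), Fkbp5 (27.9 in library 1 [40.8 to 42.9]), Mrpl42 (101 in library 4 [109 to 110.2]), Tlr6 (20.03 in library 1 [26.6 to 27.7]) and Top2a (148 in library 4 [171 to 176]). Among summed marker levels the highest library stood apart for NK cell markers in control library 2 (1.57 CPM [0 to 0.0496]), astrocyte markers in control library 1 (971 CPM [787 to 803]), engrafted bone marrow-derived macrophage markers in syngeneic library 4 (4724 CPM [3648 to 3792]), ependymal cell markers in control library 1 (0.124 CPM [0]), erythroid markers in control library 4 (14.8 CPM [2.38 to 3.0]) and neutrophil markers in syngeneic library 4 (8.31 CPM [0.646 to 0.903]). The share of counts in the 50 most counted genes was 31.5% in control library 1, against 30.5 to 30.6% in the others.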

How the results depend on the processing

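The counts of 3357 genes called higher and 3253 lower stayed within 1.5 times under every alternative run except a fold change limit of 0.5 on the log2 scale, under which 1987 and 2069 were called. They were 3426 and 3165 with RLE factors, 3523 and 3307 with DESeq2, 3433 and 3678 with limma-voom, 3201 and 3430 with the 8 libraries alone, 3058 and 2808 with the GC and length offset, and 3162 to 3246 and 3006 to 3080 with 1 library left out. Among named genes, the fold change limit ended 33 calls, library totals 13 and the offset 14 with the direction kept. The offset also ended the call of 6 genes whose direction it turned: Ccr1 (-0.0037), Cd86 (-0.13), Ctsd (0.0092), Irf8 (0.19), P2ry12 (-0.060) and Rhob (0.12). With the offset and a replicate block together it was turned for Apoe (0.25), Cd86 (-0.13), Ctsd (0.0084), Irf8 (0.19), P2ry12 (-0.055) and Rhob (0.12), of which Apoe (adjusted p = 0.0246) and Irf8 (adjusted p = 0.0446) were called by edgeR; the cause was not tested. Libraries share only a number between the groups: deviations of same-numbered libraries correlated at -0.0150 to 0.0184, and not every library correlated best with its own number. With the replicate block alone 3296 genes were called higher and 3211 lower; among named genes the calls of Cd2 (adjusted p = 0.0952) and Mdm2 (adjusted p = 0.0643) were lost, and Itgax was called lower (adjusted p = 0.0333). With means in place of medians the GC difference was -0.900 (exact adjusted p = 0.05) and the length difference was -0.0869 (exact adjusted p = 0.2). With 1 library left out, syngeneic minus control differences ranged from 2.28 to 2.70% for the 50 most counted genes, 1.45 to 1.54% for ribosomal protein genes, -0.728 to -0.643% for the long non-coding RNAs, -1.02 to -0.948 for GC content and -0.305 to -0.196 for length, designs of 3 against 4 that cannot pass the test. Counts limit genes near the level of 3 counts over a group, 0.0179 CPM.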
